A study of Triticum aestivum with 9 samples.

Results

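The AP2-EREBP and WRKY transcription factor genes of wheat (Triticum aestivum) were followed through 9 leaf RNA-seq libraries. The members were the 28 AP2-EREBP and 18 WRKY genes in the study's list of 457 transcription factors, which iTAK had sorted into families. None of the 46 was in the study's list of plant hormone signaling genes, so none had to be left out, and all 46 were found by identifier among the 130542 genes of the deposited FPKM (fragments for each kilobase of a transcript, corrected for the number of mapped fragments) table. That list of transcription factors holds genes that the study had called differentially expressed in at least one comparison of these same libraries, so every contrast below helped to choose the members. Fold changes are therefore given as descriptions, with standard errors and without P-values.

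Seedlings of the cultivar Yunong211 grew in nutrient solution. The control (C) received no chemical, the DTT group (D) received dithiothreitol at 7.5 mM, and the DTT + TUDCA group (T) received the same DTT together with tauroursodeoxycholic acid at 25 μg/mL. Leaves were taken after 2 days of treatment, with 3 biological replicates in each group. DTT keeps disulfide bonds from forming and so causes endoplasmic reticulum (ER) stress, and TUDCA is a chemical chaperone that is used to relieve it. None of the 9 libraries came from seedlings with TUDCA alone, so T vs. C compares the mixture with no chemical and T vs. D compares the mixture with DTT.

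AP2-EREBP proteins (also written AP2/ERF) bind DNA through the AP2 domain. The family includes ethylene response factors, which bind the GCC box, and DREB factors, which bind the dehydration-responsive element, and it is known for roles in ethylene, cold, drought and defence responses. WRKY proteins carry a zinc-finger domain, bind W-box elements, and are known above all for roles in defence, salicylic acid signaling and responses to abiotic stress.

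Primers for qRT-PCR were given for the WRKY genes Traes_2AS_6269D889E and Novel13869, and they are printed because they are the only sequences of members in the sources used here. Each is written 5′ to 3′.
Traes_2AS_6269D889E forward: gagatcttcgcgctcaccga
Traes_2AS_6269D889E reverse: gttggtcctgaagggctggt
Novel13869 forward: gagaactcgtcggcgtcctt
Novel13869 reverse: tattccctcgccgtcaccac
Each primer has 20 bases. Novel13869, a gene model that the authors added to the annotation, is the one member that the study names, as AtWRKY33/TaWRKY27. WRKY33 of Arabidopsis is known for its part in resistance to necrotrophic fungi. The authors place Novel13869 on the minus strand of the scaffold IWGSC_CSS_3B_scaff_10726592, at bases 2437 to 4051, in a wheat assembly whose release is not given in the sources used here. The other added members were Novel02115 (WRKY, chromosome 2B, 22097929 to 22100208, plus strand), Novel06229 (AP2-EREBP, chromosome 4B, 295002390 to 295004009, minus strand) and Novel15608 (AP2-EREBP, scaffold IWGSC_CSS_5BL_scaff_10828229, 4381 to 5587, minus strand). All other members carry identifiers that name the chromosome, and mostly the arm, but the sources used here give them no coordinates and no gene name.

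Between 16334906 and 26760247 fragments fell on genes in a library. FPKM values were divided by a scaling factor for each library, between 0.8613 and 1.0958, and every FPKM below is such a scaled value. The 24 genes that the study lists for the photosystem II oxygen evolving complex, a mark of green leaf, were all above 0 in every library. Their summed FPKM was 9660 to 13200 in the control, 4570 to 4750 under DTT and 5030 to 5650 under DTT + TUDCA. The study picked these 24 genes from its D vs. C calls, so their shift between those groups follows from the choice. Not all of them fell: past the study's thresholds for P-value and fold change, 4 were higher and 18 lower for D vs. C, at log2 fold changes of up to 7.02. For T vs. C the numbers were 5 higher and 10 lower, at up to 5.86. In leaf tissue, fewer cells of a type and less RNA per cell cannot be told apart, and the part of a change in leaf make-up in the values below was not tested. One library stood apart from its group: of 54973 genes whose mean FPKM was 1 or more, 2652 in DTT + TUDCA replicate 2 differed over 4-fold from its fellow replicates, against 236 to 463 in the remaining 8 libraries. Values without it are given where they differ most for the families and the genes described.

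Both families ranged widely in level. The mean FPKM over the 9 libraries ran from 0.109 to 63.6 among the AP2-EREBP genes, with a median of 2.11, and from 0.654 to 13 among the WRKY genes, with a median of 2.02. The 28 AP2-EREBP genes together drew 4249 to 8300 fragments in a library and the 18 WRKY genes 812 to 1908. A mean FPKM above 1 was reached by 18, 17 and 16 AP2-EREBP genes in C, D and T, and by 13, 12 and 18 WRKY genes. Under DTT + TUDCA every WRKY member was thus above that level.

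The families parted in the group where their members were highest. Of the AP2-EREBP genes, 15 had their highest mean in the control, 7 under DTT and 6 under DTT + TUDCA. Of the WRKY genes, 12 had their highest mean under DTT + TUDCA, 3 in the control and 3 under DTT. Without DTT + TUDCA replicate 2 the AP2-EREBP numbers were the same, and the WRKY numbers were 12 under DTT + TUDCA, 4 in the control and 2 under DTT. Members were chosen on differences between these groups, and the like numbers for all genes were not computed. How far the choice shaped the counts was thus not tested.

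In D vs. C the AP2-EREBP genes went both ways and the WRKY genes moved less. With the study's thresholds (unadjusted P-value under 0.01 and a log2 fold change of 1 or more in size) applied to a limma fit of log2(scaled FPKM + 0.1), 23 of 28 AP2-EREBP genes were past them, 10 higher and 13 lower under DTT. Of the 18 WRKY genes, 7 were past them, 4 higher and 3 lower. The share of all 78030 genes tested was 8.02%. These counts follow from how the members were chosen and carry no weight as a result. The median log2 fold change was -1.04 for AP2-EREBP (range -3.03 to 3.24) and 0.22 for WRKY (-1.94 to 1.41), beside -0.01 for all genes tested. The 3 DTT libraries did not overlap with the 3 control libraries for any of the 28 AP2-EREBP genes, 13 higher and 15 lower, and for 11 of 18 WRKY genes. Among all genes tested 33.8% were separated in this way. With FPKM as deposited the median of all genes moved to 0.22, and the genes past the thresholds split into 12 higher and 11 lower for AP2-EREBP and 5 higher and 2 lower for WRKY. Without DTT replicate 3, 4 WRKY genes were past them. The WRKY median was near 0 and turned to -0.12 without control replicate 1. With 1 in place of 0.1 added before the log2, 13 AP2-EREBP and 3 WRKY genes were past the thresholds.

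In T vs. D the WRKY genes moved more. None of the 28 AP2-EREBP genes was past the thresholds in the limma fit, 5 had an unadjusted P-value under 0.05, and limma-voom on fragments recovered from the FPKM values also gave 0. Their median log2 fold change was 0.04 (range -1.18 to 1.19), with 15 higher and 13 lower. Of the 18 WRKY genes 16 were higher in T, the median log2 fold change was 1.0 (range -0.17 to 1.81), and 6 were past the thresholds, all 6 higher. Among all genes tested 1.1% were past the thresholds and 0.632% were past them and higher in T. The AP2-EREBP count of 0 is near that 1.1% share, so it does not set the family apart. Of the WRKY genes, 7 were past the thresholds as higher in T vs. C but not past them in D vs. C. Such members can be on the list because T was high, so the WRKY counts carry no weight as a result. No member of either family had an adjusted P-value under 0.05 in this contrast with a log2 fold change of at least 1, and 12 WRKY genes had an unadjusted P-value under 0.05. Of all 78030 genes tested, only 1 was past the adjusted limits, so their absence here does not set the families apart. An unadjusted P-value under 0.05 was reached by 5793 of all genes tested. Libraries of T and D were apart for 10 WRKY genes, all higher in T, and for 4 AP2-EREBP genes, 3 of them higher, against 10.6% of all genes tested. The AP2-EREBP share, 14.3%, is near that of all genes.

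**Figure D1:**
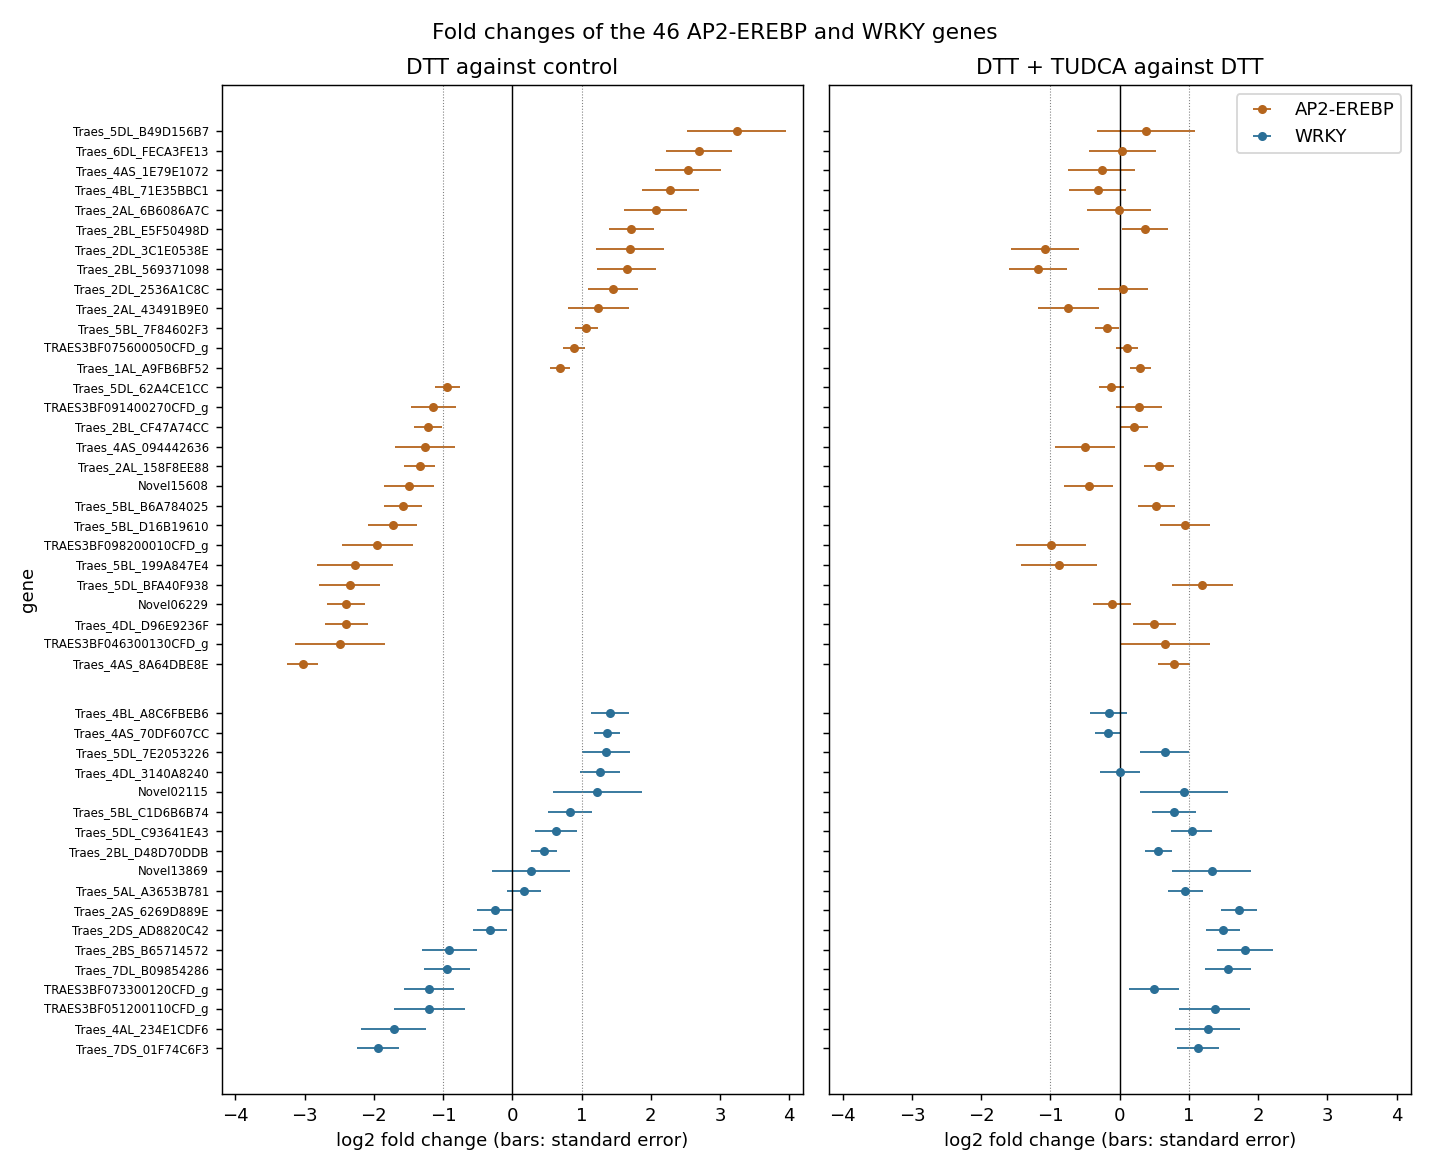
Log2 fold change of each of the 46 genes (rows; brown AP2-EREBP, blue WRKY) in D vs. C (left) and T vs. D (right), as log2(scaled FPKM + 0.1), with the standard error as a bar and dotted lines at 1 and -1. On the left the AP2-EREBP genes leave a gap around 0, from -0.94 to 0.69, which their selection can produce, and on the right 16 of 18 WRKY genes lie above 0 while the AP2-EREBP genes lie on both sides.

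Without DTT + TUDCA replicate 2 the WRKY genes past the thresholds in T vs. D were 4, all 4 of them among the 6, with a median log2 fold change of 0.81, and 16 of 18 were still higher in T. The AP2-EREBP count stayed at 0 and its median was 0.11. Libraries of T and D were then apart for 10 WRKY genes, all higher in T, and for 7 AP2-EREBP genes, 3 higher and 4 lower. Leaving out DTT replicate 1 also gave 4 WRKY genes, and 1 AP2-EREBP gene. The shares of all genes were not computed with a library left out, so these counts cannot be set beside 1.1% or 10.6%. Groups also come apart more easily when 1 of them has fewer libraries.

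Single libraries were also set against the 3 DTT libraries, with the same values that had helped to choose the members. In T replicates 1, 2 and 3, 12, 15 and 13 of the 18 WRKY genes were above all 3 DTT libraries, and 0, 1 and 1 were below all 3. For the 28 AP2-EREBP genes the numbers above were 8, 11 and 7, and those below were 6, 6 and 9. The share of all genes placed in this way was not computed, so these counts are a description only.

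A per-library score was taken as the median, over the members of a family, of the log2 value relative to the control mean. For the WRKY genes it was -0.02, 0 and 0.36 in the DTT libraries and 1.08, 1.23 and 1.07 in the DTT + TUDCA libraries. For the AP2-EREBP genes it was -1.07, -0.84 and -0.89 under DTT and -0.96, -0.24 and -0.69 under DTT + TUDCA. The AP2-EREBP score of T replicate 2 was the closest to the control, and that of T replicate 1 lay within the DTT libraries.

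The summed FPKM, which weights members by level, gave a like picture for WRKY. It was 49.0 ± 2.61 (SD, n = 3) in the control, 46.7 ± 3.57 under DTT and 81.4 ± 19.6 under DTT + TUDCA, where the libraries read 73.0, 104 and 67.6. The AP2-EREBP sum was 273 ± 14.5 in the control, 218 ± 31.4 under DTT and 226 ± 17.6 under DTT + TUDCA. All 6 treated libraries, at 182 to 243, were under the lowest control library, at 262, but this order depends on the scaling: with FPKM as deposited the sums were 230 to 275 in the control, 199 to 260 under DTT and 220 to 242 under DTT + TUDCA. For WRKY the deposited values gave 43.9 to 45.4, 47.8 to 53.6 and 71.7 to 104 in C, D and T, so T stayed above the others. The 4 highest AP2-EREBP genes made up 65.9% to 70.6% of the sum in the control libraries, 53.4% to 63.3% under DTT and 55.9% to 65.7% under DTT + TUDCA.

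**Figure D2:**
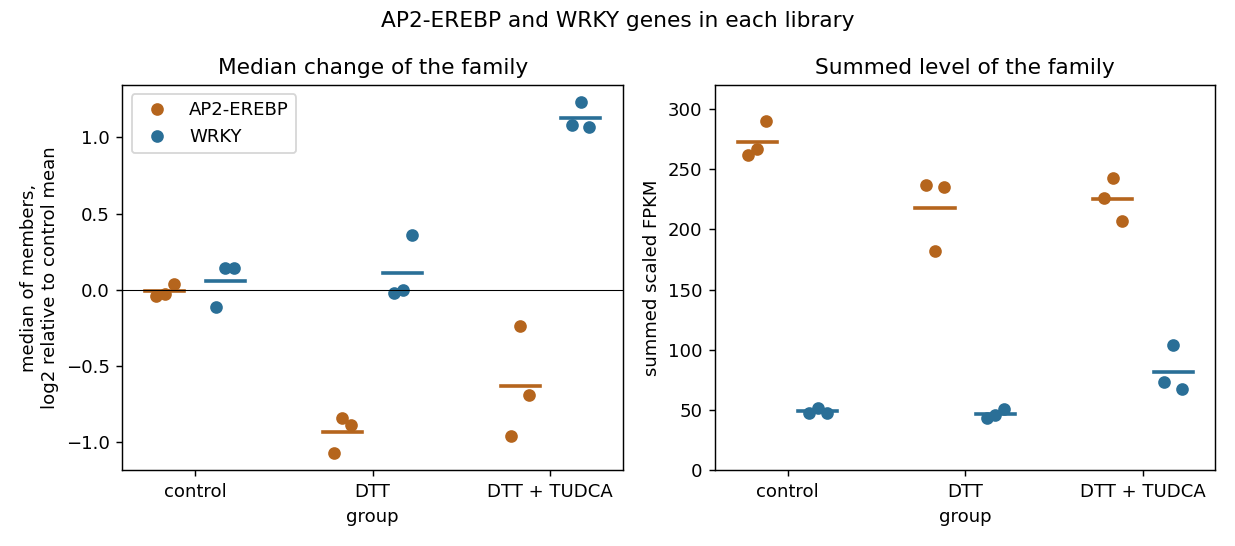
Each point is 1 library and each bar the mean of 3, by group, for AP2-EREBP (brown) and WRKY (blue). Left: the median over members of the log2 value relative to the control mean, where WRKY reads 1.07 to 1.23 in T and -0.02 to 0.36 in D. Right: the summed scaled FPKM of the family, from 0, where WRKY reads 67.6 to 104 in T and 43.7 to 52.0 elsewhere.

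In T vs. C, 17 of 28 AP2-EREBP genes were past the thresholds, 7 higher and 10 lower, and 11 of 18 WRKY genes, all 11 higher. The share of all genes tested was 7.87%, and 4.36% for genes higher in T. This contrast also helped to choose the members, so these counts carry no weight as a result. The median log2 fold change was -0.78 for AP2-EREBP and 1.19 for WRKY, beside -0.02 for all genes tested. With FPKM as deposited the median of all genes was 0.16, and the 17 AP2-EREBP genes split into 10 higher and 7 lower. Libraries of T and C were apart for 24 AP2-EREBP and 14 WRKY genes, against 31% of all genes tested. With 1 added before the log2, 10 AP2-EREBP and 2 WRKY genes were past the thresholds. The 3 contrasts share libraries, so their counts are not independent of each other. Without T replicate 2, 20 AP2-EREBP genes and 10 WRKY genes were past the thresholds, and of the 10, 8 were higher and 2 lower. The medians were then -0.97 for AP2-EREBP and 1.25 for WRKY, and 26 AP2-EREBP and 15 WRKY genes had libraries of T and C apart. The 2 lower ones were Traes_7DS_01F74C6F3 and TRAES3BF073300120CFD_g, in both of which T replicate 2 was the highest T library. The shares of all genes were not computed without that library, so the counts without it cannot be set beside 7.87% or 31%.

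Some of the 18 WRKY genes could be grouped by chromosome arm, in sets of 3 (group 2 short arms), 3 (4AS, 4BL and 4DL) and 4 (group 5 long arms). Bread wheat carries A, B and D genomes, so that a gene often has a homoeologous copy on the matching arm of each, and an inversion in chromosome 4A places genes that match 4BL and 4DL on 4AS. Members of 1 set can share reads, how reads that fit several copies were counted is not stated, and homoeology was not tested here. Members of a set are thus not independent of each other. Lengths implied by the FPKM values were 1528, 1403 and 897 bases for the 2AS, 2BS and 2DS genes. They were 1289, 1486 and 1428 for the 4AS, 4BL and 4DL genes. For the 5AL gene, the 5BL gene and both 5DL genes they were 1249, 933, 1610 and 1552, so lengths within a set often differed.

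The set on 2AS, 2BS and 2DS was at its highest under DTT + TUDCA. Traes_2AS_6269D889E, the first of the genes with printed primers, read 1.18, 1.74 and 2.35 FPKM in the control, 1.63, 1.38 and 1.25 under DTT, and 4.68, 4.49 and 5.51 under DTT + TUDCA. Control and DTT libraries overlapped, and all 3 DTT + TUDCA libraries were above them. Its log2 fold change was -0.25 ± 0.26 (SE) for D vs. C, and for T vs. D 1.72 ± 0.26.

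Traes_2BS_B65714572 read 0.505, 1.44 and 1.66 FPKM in the control, 0.697, 0.488 and 0.423 under DTT, and 2.42, 2.03 and 1.85 under DTT + TUDCA. Control replicate 1 lay among the DTT libraries, and the T libraries were again above all others. The log2 fold change was -0.91 ± 0.40 (SE) for D vs. C, and for T vs. D 1.81 ± 0.40, where it was the highest of the 46 genes.

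Traes_2DS_AD8820C42 read 1.03, 1.69 and 1.58 FPKM in the control, 0.942, 1.09 and 1.32 under DTT, and 3.06, 3.05 and 3.86 under DTT + TUDCA. The T libraries were above all others here too, with a log2 fold change of 1.49 ± 0.25 (SE) in T vs. D. The 3 genes of this set were past the thresholds in T vs. D with or without T replicate 2, at 1.78, 1.82 and 1.55 for the 2AS, 2BS and 2DS genes without it.

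The set on 4AS, 4BL and 4DL rose under DTT and was at nearly the same level with TUDCA added. Traes_4AS_70DF607CC read 2.37, 2.70 and 2.17 FPKM in the control, 7.14, 5.50 and 6.61 under DTT, and 6.96, 4.97 and 5.28 under DTT + TUDCA. Its log2 fold change was 1.37 ± 0.19 (SE) for D vs. C, and for T vs. D -0.17 ± 0.19. D and T libraries overlapped, and every one of them was above the control.

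Traes_4BL_A8C6FBEB6 read 1.72, 1.57 and 2.23 FPKM in the control, 7.48, 3.62 and 4.59 under DTT, and 5.28, 4.39 and 3.84 under DTT + TUDCA. Traes_4DL_3140A8240 read 1.41, 0.885 and 1.30 FPKM in the control, 4.05, 2.19 and 3.0 under DTT, and 3.71, 2.32 and 3.15 under DTT + TUDCA. In D vs. C their log2 fold changes were 1.41 ± 0.27 and 1.27 ± 0.29 (SE), and in T vs. D they were -0.16 ± 0.27 and 0.01 ± 0.29. The 3 genes of this set were the WRKY genes with the smallest change in T vs. D, and the only ones whose highest mean was under DTT.

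The set on group 5 long arms took a middle course. Traes_5DL_7E2053226 read 0.203, 0.314 and 0.269 FPKM in the control, 0.525, 1.09 and 0.921 under DTT, and 0.981, 1.88 and 1.29 under DTT + TUDCA. Traes_5DL_C93641E43 read 0.351, 0.244 and 0.279 in the control, 0.487, 0.630 and 0.410 under DTT, and 0.868, 1.27 and 1.34 under DTT + TUDCA. For both genes every DTT library was above every control library, and for the latter every DTT + TUDCA library was above every DTT library.

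Traes_5BL_C1D6B6B74 read 0.876, 0.949 and 0.887 FPKM in the control, 1.95, 1.21 and 2.00 under DTT, and 1.84, 4.12 and 3.40 under DTT + TUDCA. Traes_5AL_A3653B781 read 1.44, 1.21 and 1.48 in the control, 1.28, 1.68 and 1.76 under DTT, and 2.45, 4.19 and 2.91 under DTT + TUDCA. Only the 5AL gene of this set overlapped between C and D. In T vs. D the log2 fold changes of the 5AL, 5BL and both 5DL genes were 0.95, 0.78, 0.65 (Traes_5DL_7E2053226) and 1.04 (Traes_5DL_C93641E43), and in D vs. C they were 0.17, 0.83, 1.35 and 0.63 in the same order. Without T replicate 2 the T vs. D value of Traes_5DL_7E2053226 was 0.42.

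**Figure D3:**
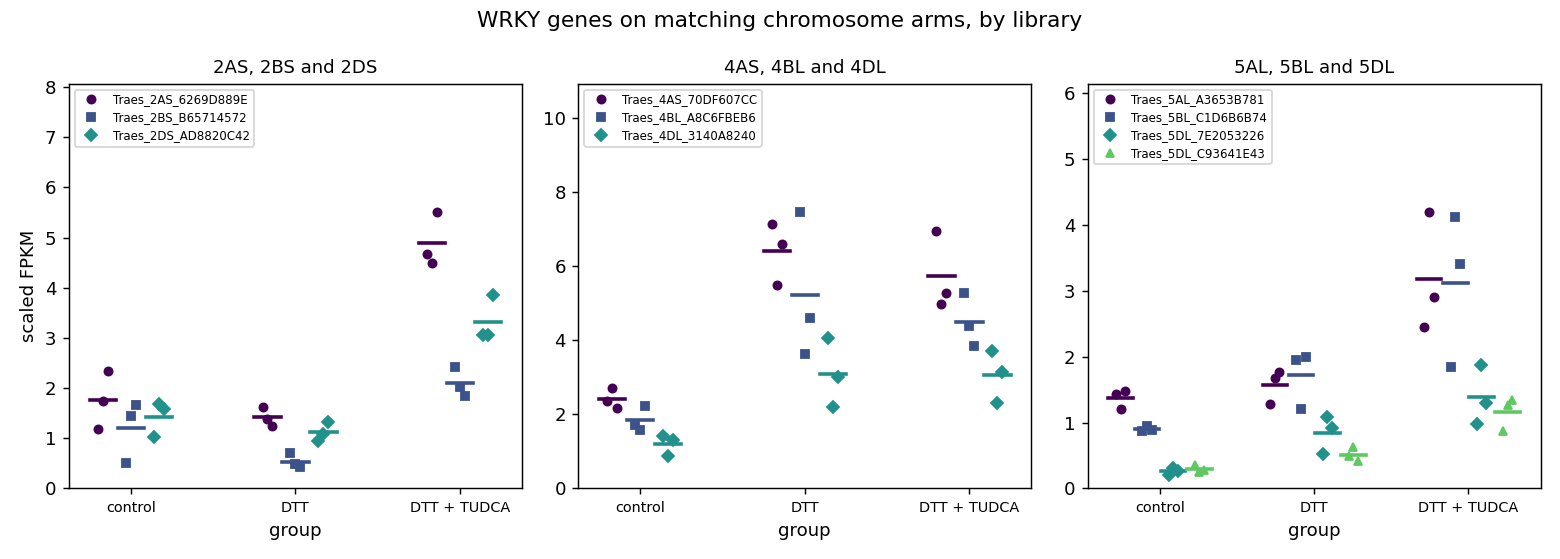
Scaled FPKM (y axes from 0, each panel with its own scale) of the WRKY genes on matching arms, by group, with 1 point a library and a bar for the mean of 3. The 2S genes are highest in the DTT + TUDCA column, at 1.25 to 1.63 in D and 4.49 to 5.51 in T for the 2AS gene. The genes of 4AS, 4BL and 4DL are higher in both treated groups, and the means of the group 5 genes are lowest in C and highest in T.

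Novel13869, the member named after WRKY33, was not separated by DTT. It read 0.223, 1.39 and 1.22 FPKM in the control, 1.23, 0.480 and 1.35 under DTT, and 2.24, 2.33 and 3.02 under DTT + TUDCA. The control and DTT libraries lay in the same range, with control replicate 1 the lowest of all 9 libraries at 5 fragments. Its log2 fold change was 0.27 ± 0.57 (SE) for D vs. C. Against T it was 1.60 ± 0.57 for T vs. C and 1.33 ± 0.57 for T vs. D. In the limma fit it was past the thresholds in none of the 3 contrasts, although every DTT + TUDCA library was above every other. The study reports this gene as lower under DTT and higher with TUDCA added, and cites its qRT-PCR for this. The D vs. C value here depends on control replicate 1, and the other control libraries read 1.39 and 1.22. With a standard error of 0.57 these FPKM values cannot decide whether the gene fell under DTT. The higher level with TUDCA was seen in them.

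The WRKY genes with the lowest log2 fold changes in D vs. C had higher means under DTT + TUDCA than under DTT, in part through T replicate 2. They were picked for low DTT values, and T vs. D uses the same DTT libraries, so part of the rise can follow from the choice. Traes_7DS_01F74C6F3 read 7.18, 5.79 and 5.63 FPKM in the control, 1.30, 1.25 and 2.17 under DTT, and 3.06, 5.33 and 2.54 under DTT + TUDCA. Its log2 fold change was -1.94 ± 0.30 (SE) for D vs. C, and for T vs. D 1.13 ± 0.30, and the groups D and T did not overlap. T replicate 2 was the highest of its group, and without it the T vs. D value was 0.83 and no longer past the thresholds. This gene model is also the shortest of the family, at 273 bases as implied by the FPKM values, and its libraries held 7 to 39 fragments.

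Traes_4AL_234E1CDF6 read 1.24, 3.07 and 2.65 FPKM in the control, 0.396, 1.02 and 0.504 under DTT, and 1.24, 2.82 and 1.08 under DTT + TUDCA. TRAES3BF051200110CFD_g, which had the second highest WRKY level, read 14.5, 14.9 and 8.28 in the control, 3.01, 7.24 and 6.56 under DTT, and 12.4, 30.3 and 6.78 under DTT + TUDCA. In both genes T replicate 2 was the highest T library. The log2 fold changes in T vs. D were 1.27 ± 0.47 and 1.37 ± 0.51 (SE), and neither gene was past the thresholds there. Without T replicate 2 they were 0.86 for the 4AL gene and 0.80 for the other.

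TRAES3BF073300120CFD_g had a T mean that rested on the same library. It read 3.05, 3.68 and 3.48 FPKM in the control, 1.19, 1.70 and 1.42 under DTT, and 1.25, 3.91 and 1.74 under DTT + TUDCA. The change from D to T was 0.50 ± 0.36 (SE) on the log2 scale, and 0.05 without T replicate 2. Traes_7DL_B09854286 held up better: it read 1.34, 2.26 and 2.18 in the control, 0.712, 1.21 and 0.940 under DTT, and 2.00, 4.3 and 2.98 under DTT + TUDCA, with 1.56 ± 0.33 in T vs. D and 1.30 without that library.

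Traes_2BL_D48D70DDB had the highest level of the WRKY genes. It read 8.49, 7.94 and 9.87 FPKM in the control, 9.43, 13.2 and 14.1 under DTT, and 16.7, 20.7 and 16.3 under DTT + TUDCA. Its T libraries were above all others, and its C and D libraries overlapped. The log2 fold change was 0.46 ± 0.19 (SE) for D vs. C, and for T vs. D 0.56 ± 0.19.

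Novel02115 had the highest WRKY value in T vs. C and the largest standard error of the family. It read 0.0402, 0.280 and 0.378 FPKM in the control, 0.197, 0.721 and 1.25 under DTT, and 1.81, 1.42 and 0.680 under DTT + TUDCA, from 1 to 53 fragments a library. The T libraries were above the control and overlapped with DTT. Its log2 fold change was 2.16 ± 0.64 (SE) for T vs. C, with 0.93 ± 0.64 for T vs. D.

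Of the 4 highest AP2-EREBP genes by mean FPKM, 3 fell under DTT and 1 rose. Traes_4AS_8A64DBE8E read 52.6, 47.5 and 56.8 FPKM in the control, 7.73, 7.27 and 4.42 under DTT, and 8.60, 12.5 and 12.1 under DTT + TUDCA. It had the lowest log2 fold change of the 46 genes in D vs. C, -3.03 ± 0.23 (SE), and the T libraries were above the DTT libraries by 0.78 ± 0.23 on the log2 scale while staying far under the control.

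Traes_4DL_D96E9236F, on the arm that matches that of the 4AS gene, was at a much lower level and fell likewise. It read 4.59, 5.54 and 7.68 FPKM in the control, 1.61, 0.709 and 0.921 under DTT, and 1.62, 1.57 and 1.29 under DTT + TUDCA. The log2 fold change was -2.40 ± 0.31 (SE) in D vs. C. In T vs. D it was 0.50 ± 0.31, and the libraries overlapped. The lengths implied by the FPKM values were 1507 bases for the 4AS gene and 1519 for the 4DL gene.

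A second pair lay on 2AL and 2BL. Traes_2AL_158F8EE88 read 39.9, 38.8 and 49.9 FPKM in the control, 17.6, 16.9 and 15.8 under DTT, and 20.9, 36.4 and 20.3 under DTT + TUDCA. Traes_2BL_CF47A74CC read 51.7, 51.4 and 58.6 in the control, 23.6, 23.5 and 21.9 under DTT, and 23.9, 37.6 and 21.0 under DTT + TUDCA. In both genes T replicate 2 was the only T library well above the DTT level.

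In D vs. C their log2 fold changes were -1.34 ± 0.22 for the 2AL gene and -1.22 ± 0.20 (SE) for the 2BL gene. In T vs. D they were 0.57 ± 0.22 and 0.21 ± 0.20, and without T replicate 2 they were 0.30 and -0.04. The implied lengths were 900 and 885 bases.

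Traes_5BL_7F84602F3 had the highest level of all 46 genes and rose. It read 37.1, 38.4 and 39.1 FPKM in the control, 77.7, 67.3 and 99.7 under DTT, and 77.8, 72.8 and 62.7 under DTT + TUDCA. D and T overlapped, and both were above the control. The log2 fold change was 1.07 ± 0.17 (SE) for D vs. C. It was 0.89 ± 0.17 for T vs. C, and -0.18 ± 0.17 for T vs. D.

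The largest AP2-EREBP rises in D vs. C included a pair on 4AS and 4BL. Traes_4AS_1E79E1072 read 2.50, 1.84 and 4.43 FPKM in the control, 28.5, 8.76 and 17.8 under DTT, and 19.7, 7.79 and 16.8 under DTT + TUDCA. Traes_4BL_71E35BBC1 read 2.2, 1.84 and 2.33 in the control, 17.2, 6.17 and 11.3 under DTT, and 12.3, 4.65 and 10.7 under DTT + TUDCA. Their implied lengths were 1307 and 1339 bases, and within each treated group the libraries came in the same order in both genes, with replicate 2 the lowest.

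Traes_6DL_FECA3FE13 read 0.608, 0.368 and 0.459 FPKM in the control, 6.45, 2.06 and 3.52 under DTT, and 5.61, 1.83 and 4.89 under DTT + TUDCA. Replicate 2 was again the lowest library of both treated groups. The log2 fold changes in D vs. C were 2.54 ± 0.48 (SE) for the 4AS gene, 2.28 ± 0.41 for the 4BL gene and 2.70 ± 0.48 for the 6DL gene. In T vs. D they were -0.26 ± 0.48, -0.32 ± 0.41 and 0.04 ± 0.48, and without T replicate 2 they were 0.15, 0.11 and 0.52.

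Traes_5DL_B49D156B7 had no fragment in any control library. It read 2.01, 0.201 and 1.22 FPKM under DTT and 1.34, 0.479 and 2.14 under DTT + TUDCA, from 1 to 11 fragments. Against a floor of 3 fragments per control library its group mean was at least 1.77-fold higher under DTT and at least 2.04-fold higher under DTT + TUDCA. Replicate 2 held 1 fragment under DTT and 2 under DTT + TUDCA, both under that floor. The bounds thus hold for the means and not for every library. The model is 243 bases long, the shortest of the family.

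**Figure D4:**
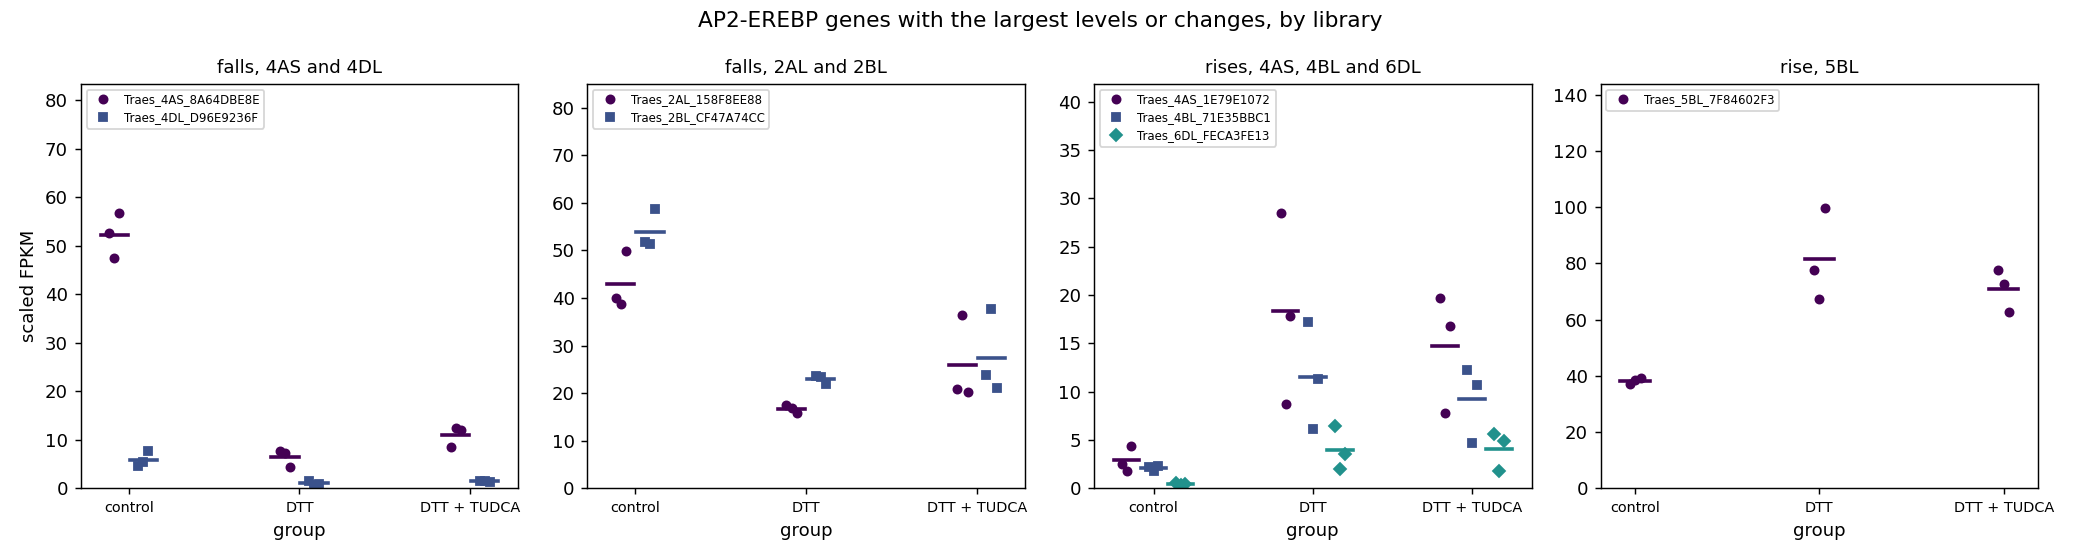
Scaled FPKM (y axes from 0, each panel with its own scale) of 8 AP2-EREBP genes, by group, with 1 point a library and a bar for the mean of 3. The genes of the first and second panels are lower in both treated groups and those of the other panels are higher. In the third panel replicate 2 is the lowest treated library of each gene, as at 8.76 and 7.79 for the 4AS gene.

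The other AP2-EREBP genes of the long arms of group 2 were at a low level and higher under DTT. Traes_2BL_E5F50498D read 0.0754, 0.146 and 0.145 FPKM in the control, 0.718, 0.429 and 0.782 under DTT, and 0.900, 0.913 and 0.718 under DTT + TUDCA. Traes_2DL_2536A1C8C read 0.137, 0.250 and 0.255 in the control, 0.878, 0.457 and 1.02 under DTT, and 0.784, 0.647 and 0.932 under DTT + TUDCA. Both treated groups were above the control in both genes and overlapped with each other.

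Traes_2AL_6B6086A7C read 0.204, 0 and 0.0295 FPKM in the control, 0.833, 0.513 and 0.413 under DTT, and 0.522, 0.654 and 0.519 under DTT + TUDCA. The control libraries held 5, 0 and 1 fragments and the treated libraries 12 to 25, so the size of the rise is loosely known. Log2 fold changes in D vs. C were 2.07 ± 0.46 (SE) for this gene, 1.72 ± 0.33 for the 2BL gene and 1.46 ± 0.36 for the 2DL gene.

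A further 3 genes of these arms had their highest mean under DTT and lower means under DTT + TUDCA. Traes_2BL_569371098 held 1, 0 and 0 fragments in the control, 7, 7 and 9 under DTT, and 3, 2 and 0 under DTT + TUDCA. Traes_2DL_3C1E0538E held 3, 1 and 0 fragments in the control, 12, 25 and 18 under DTT, and 4, 11 and 1 under DTT + TUDCA. These were the AP2-EREBP genes with the lowest values in T vs. D, -1.18 ± 0.42 and -1.08 ± 0.49 (SE), on counts that leave much room for counting error.

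The third of these, Traes_2AL_43491B9E0, read 0.518, 0.925 and 0.288 FPKM in the control, 1.79, 1.18 and 1.24 under DTT, and 1.19, 0.426 and 0.928 under DTT + TUDCA. Its log2 fold changes were 1.24 ± 0.44 (SE) for D vs. C, and for T vs. D -0.74 ± 0.44, and it was past the thresholds in no contrast. Without T replicate 2 the T vs. D value was -0.36.

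On group 5 long arms 5 AP2-EREBP genes had lower values under DTT. Traes_5BL_199A847E4 read 3.47, 5.48 and 3.63 FPKM in the control, 0.878, 0.698 and 0.744 under DTT, and 0.714, 0.703 and 0.0633 under DTT + TUDCA. Its log2 fold change in T vs. C, -3.15 ± 0.55 (SE), was the lowest of the 46 genes, and T replicate 3 held 1 fragment. Traes_5DL_BFA40F938 read 1.58, 1.33 and 0.828 in the control, 0.0718, 0.316 and 0.137 under DTT, and 0.6, 0.658 and 0.280 under DTT + TUDCA.

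The latter gene had the highest AP2-EREBP value in T vs. D, 1.19 ± 0.44 (SE), from 1 to 4 fragments a library under DTT and 3 to 8 under DTT + TUDCA. Traes_5BL_D16B19610 had the next highest, 0.94 ± 0.36. It read 2.95, 3.51 and 4.49 FPKM in the control, 1.58, 0.976 and 0.664 under DTT, and 1.26, 2.40 and 2.79 under DTT + TUDCA. D and T overlapped in both genes.

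Traes_5BL_B6A784025 read 7.40, 7.92 and 7.59 FPKM in the control, 2.15, 2.78 and 2.59 under DTT, and 2.35, 5.57 and 3.70 under DTT + TUDCA. Traes_5DL_62A4CE1CC read 18.7, 26.0 and 16.8 in the control, 9.89, 9.85 and 11.7 under DTT, and 9.14, 10.2 and 9.59 under DTT + TUDCA. In both genes every treated library was under every control library. The log2 fold changes in D vs. C were -1.58 ± 0.27 and -0.94 ± 0.18 (SE), the latter not past the thresholds.

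Traes_4AS_094442636, the remaining gene of the 4AS, 4BL and 4DL set, was at a low level throughout, with 9 to 17 fragments in the control libraries, 3 to 7 under DTT and 1 to 4 under DTT + TUDCA. TRAES3BF046300130CFD_g held 7, 13 and 8 fragments in the control, 0, 1 and 2 under DTT, and 3, 4 and 0 under DTT + TUDCA. Both genes were lower in all treated libraries than in all control libraries. TRAES3BF098200010CFD_g read 1.55, 1.38 and 1.27 FPKM in the control, 0.589, 0.278 and 0.12 under DTT, and 0.176, 0 and 0.164 under DTT + TUDCA, with log2 fold changes of -1.95 ± 0.51 (SE) for D vs. C, and for T vs. D -0.99 ± 0.51, or -0.52 without T replicate 2.

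Both added AP2-EREBP models fell. Novel06229 read 4.29, 3.49 and 4.35 FPKM in the control, 0.828, 0.596 and 0.638 under DTT, and 0.466, 0.834 and 0.620 under DTT + TUDCA, with a log2 fold change of -2.40 ± 0.27 (SE) in D vs. C. Novel15608 read 10.7, 9.01 and 8.16 in the control, 1.94, 3.78 and 4.53 under DTT, and 2.67, 3.28 and 1.43 under DTT + TUDCA, with -1.49 ± 0.36. In T vs. D the values were -0.11 ± 0.27 and -0.45 ± 0.36, and without T replicate 2 they were -0.29 and -0.69. TRAES3BF091400270CFD_g read 2.19, 2.78 and 3.76 in the control, 1.23, 1.36 and 1.13 under DTT, and 1.06, 2.61 and 1.27 under DTT + TUDCA.

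The members nearest to the thresholds were AP2-EREBP genes with small standard errors. Traes_1AL_A9FB6BF52 read 10.8, 11.8 and 11.7 FPKM in the control, 20.1, 15.8 and 19.9 under DTT, and 22.4, 26.1 and 20.5 under DTT + TUDCA. TRAES3BF075600050CFD_g read 5.28, 5.53 and 5.71 in the control, 10.6, 8.55 and 12 under DTT, and 10, 11 and 12.1 under DTT + TUDCA. Their largest absolute log2 fold change in any contrast was 0.99 for both genes, just outside the limit in this fit of FPKM values.

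By the same measure, the largest absolute value in any contrast, Traes_2BL_D48D70DDB at 1.02 and Traes_5DL_62A4CE1CC at 1.05 were just inside. Both values were from T vs. C, where the 2BL gene was higher in T and the 5DL gene lower. Of all 46 genes, 41 were past the thresholds in at least one contrast and 5 in none. The members were listed for calls in these contrasts, so this count follows from the choice. The like share of all genes was not computed. The study tested counts with DESeq, which the FPKM table does not hold, and family names of genes outside its list were not used here, so members of the families that the study did not call cannot be placed beside these.

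Replicates of the AP2-EREBP genes were more spread under treatment. The median SD of log2 values within a group was 0.28 in C, 0.44 in D and 0.57 in T for AP2-EREBP, and 0.29, 0.36 and 0.36 for WRKY. Among all genes tested it was 0.24, 0.27 and 0.41.

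The other transcription factors of the study's list were read in the same way. Of the 411 genes of other families 404 were tested, and 30 of these were past the thresholds in T vs. D, 18 higher and 12 lower, with a median log2 fold change of -0.02. MYB, a large family with roles in secondary metabolism and stress responses, had 7 of 44 tested genes past them, 6 higher, and a median of 0.00. NAC, a family with roles in senescence and stress responses, had 4 of 39 past them, 3 lower, and a median of -0.47. Of the bHLH genes 2 of 30 were past them, with a median of 0.11, and of the bZIP genes, a family that includes regulators of ER stress responses, 0 of 29 in the limma fit and with limma-voom on recovered fragments, with 10 at an unadjusted P-value under 0.05 and a median of -0.26. WRKY stood at 6 of 18 with a median of 1.0, and AP2-EREBP at 0 of 28 with a median of 0.04. The share of all genes tested was 1.1%, and the counts of 0 of 28 and 0 of 29 are near it. All of these genes were chosen on the same libraries, so no test of one family against another was made.

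In D vs. C the thresholds were passed by 23 of 28 AP2-EREBP genes, 33 of 44 MYB genes, 30 of 39 NAC genes, 27 of 30 bHLH genes, 27 of 29 bZIP genes and 309 of 404 genes of all families other than AP2-EREBP and WRKY. The WRKY share was smaller, at 7 of 18 (38.9%, against 76.5% of those 404). Among all genes tested it was 8.02%. All of these genes were listed for differences between these libraries, so the shares follow from the choice and carry no weight as a result. The median log2 fold change was -1.12 for MYB, 1.63 for NAC, 0.94 for bHLH and 1.80 for bZIP, beside -1.04 for AP2-EREBP and 0.22 for WRKY.

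The hormone pathways tied to these families were read from the study's list of signaling genes, which is also chosen on D vs. C. All 5 ethylene signaling genes were past the thresholds in D vs. C, 1 higher and 4 lower, and of 17 salicylic acid signaling genes 14 were past them, 2 higher and 12 lower. The share of all genes tested was 8.02%, and the counts of these lists follow from the choice. In T vs. D the limma fit had 0 of 5 and 0 of 17 past the thresholds. The share of all genes tested was 1.1%, so a count of 0 in lists this small is near that share. An unadjusted P-value under 0.05 was reached by 0 of the ethylene genes and 1 of the salicylic acid genes, and by 5793 of all 78030 genes tested. The medians in T vs. D were 0.08 for ethylene and 0.23 for salicylic acid.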

How the data were processed

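Leaf RNA of 9 libraries was sequenced as 150 bp read pairs. The submitters' processing notes name TopHat2 2.0.12, Bowtie2 2.2.3 and HTSeq 0.6.1, and the genome release is not given in the sources used here. The authors deposited FPKM values per gene, and counts were not used. The members and lists were chosen with earlier results of these data known. Libraries were scaled by the median ratio over 54436 genes (mean FPKM 1 or more and no value of 0), genes with a mean of at least 0.1 were kept (78030 of 130542, all 46 members among them), and log2(scaled FPKM + 0.1) was fitted with limma 3.58.1 (trend in the variance, 3 groups in 1 model) in R 4.3.3. Values under about 1 FPKM are damped by the added 0.1. Any member could be named. Per-library values were given for the genes with primers, the largest changes, the highest levels and the sets on matching arms, and then for the remaining members. Fragments behind each value were recovered as whole multiples of the smallest step of each gene, and they served for depth, the floor of 3 fragments and a limma-voom fit. The code was tested on simulated data. Replicate numbers of control and DTT + TUDCA libraries went together (correlations of deviations 0.16, 0.18 and 0.12), those of the other pairs of groups did not (-0.17 to 0.04). The labels do not say that a number marks a shared batch. Alternatives were another added value, filter, scaling or model, a replicate block, adjusted P-values, and every library omitted once.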

Additional observations from a re-analysis of the deposited data

How the results depend on the processing

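Adding 1 in place of 0.1 before the log2 damps low genes. With it, 13 AP2-EREBP and 3 WRKY genes were past the thresholds for D vs. C, and 10 and 2 for T vs. C. The AP2-EREBP median was then -0.58 for D vs. C. It was -0.52 for T vs. C, where the WRKY median was 0.86. In T vs. D the WRKY median was 0.63. A minimum mean FPKM of 1 leaves fewer members. With it, 14 AP2-EREBP genes were past the thresholds for D vs. C, 11 were for T vs. C, and the WRKY median in D vs. C was -0.25. With FPKM as deposited the medians in D vs. C were -0.80 for AP2-EREBP and 0.45 for WRKY, and the WRKY median in T vs. C was 1.37. With adjusted P-values under 0.05 no WRKY gene, and only 1 of all 78030 genes tested, was past the thresholds in T vs. D. Without a minimum FPKM 1 AP2-EREBP gene was.

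Leaving out 1 library at a time, the WRKY count was 4 to 8 in D vs. C (4 without DTT replicate 3), and the WRKY median there was -0.12 to 0.39, at -0.12 without control replicate 1. The median was -0.97 to -0.53 for AP2-EREBP in T vs. C and 0.81 to 1.16 for WRKY in T vs. D, and the AP2-EREBP count in T vs. D was 0 to 1. The WRKY count in T vs. D was 4 to 8, at 4 without DTT replicate 1 or DTT + TUDCA replicate 2. With the replicate block the counts were the same as without it, with 23 AP2-EREBP and 7 WRKY genes for D vs. C, 17 and 11 for T vs. C, and 0 and 6 for T vs. D. In T vs. D the block took Traes_5DL_C93641E43 out of the 6 and brought Traes_4AL_234E1CDF6 in, and it changed no other call. The causes of these moves were not tested. Members with few fragments are limited by depth.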

Other observations

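In both treated groups, 6 AP2-EREBP and 2 WRKY genes had replicate 2 as their lowest library. The AP2-EREBP genes were Traes_2AL_43491B9E0, Traes_2DL_2536A1C8C, Traes_4AS_1E79E1072, Traes_4BL_71E35BBC1, Traes_5DL_B49D156B7 and Traes_6DL_FECA3FE13, and the WRKY genes were Traes_4AS_70DF607CC and Traes_4DL_3140A8240. Of these, 5 AP2-EREBP and 2 WRKY genes also had replicate 1 as the highest DTT library. The pattern was chosen after the values were seen. Its share among all genes was not computed, so these counts carry no weight as a result.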
